A study of Mus musculus with 11 samples.

Results

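A set of 10 genes of smooth muscle contraction and of the myofibroblast state was followed in infarcted mouse hearts, out of 55421 genes in the count table. They were taken by their symbols as known genes of these cell states, and fall into 5 smooth muscle contractile genes (Acta2, Tagln, Cnn1, Myh11 and Actg2) and 5 genes linked to activated fibroblasts and matrix (Fap, Cthrc1, Ddah1, Lrrc15 and Smoc2). Each of the 10 symbols matched 1 row of the table, and all 10 passed the filter on low counts in every comparison.

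The hearts came from 11 female C57BL/6J mice, 8 weeks old, and poly(A) RNA was sequenced from tissue taken on day 3 after the operation. A permanent tie around the left anterior descending coronary artery in 8 mice caused a myocardial infarction (MI), after which an osmotic minipump delivered either the ADAM10 inhibitor GI254023X at 100 mg/kg (A10i, 4 mice, named A116, A117, A119 and A120) or its solvent DMSO (4 mice, A105, A127, A128 and A129). The other 3 mice were sham-operated, also received DMSO and carry the names S1, S2 and S3. Infarcted hearts gave tissue of the infarct and its border zone, whereas sham hearts gave healthy tissue, and in such bulk samples fewer cells of a type and less RNA per cell cannot be told apart.

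After an infarct, fibroblasts of the heart multiply, move into the damaged wall and turn into myofibroblasts, cells that lay down collagen and take on part of the contractile machinery of smooth muscle. Smooth muscle α-actin, the product of Acta2, assembles into stress fibers in these cells, and its gene is driven by serum response factor (SRF), which binds DNA elements called CArG boxes and recruits the myocardin-related cofactors. The same contractile genes are active in the smooth muscle of coronary vessels in the uninjured heart, so that their RNA in a piece of ventricle can come from vessels and from myofibroblasts, while Myh11 is the classic marker of mature smooth muscle.

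Promoter sequence is shown for 2 contractile members, because the CArG box is the element through which this gene group is known to be controlled. Of the 10 members, 4 matched an entry of the RefSeq promoter table (GRCm38.p6, 250 bases before to 50 bases from the start site used there), namely Acta2, Cnn1, Ddah1 and Lrrc15. For Acta2 and Cnn1 that start site lies inside the gene bounds given below for each gene. Positions are therefore relative to the start site of the promoter table alone. Capitals mark CArG-like matches, defined as CC and GG around 6 bases of which at least 5 are A or T, searched on both strands. The first sequence lies at chr19:34255324-34255623 on the minus strand and the second at chr9:22099003-22099302 on the plus strand, both written 5′ to 3′ along the gene.
Acta2: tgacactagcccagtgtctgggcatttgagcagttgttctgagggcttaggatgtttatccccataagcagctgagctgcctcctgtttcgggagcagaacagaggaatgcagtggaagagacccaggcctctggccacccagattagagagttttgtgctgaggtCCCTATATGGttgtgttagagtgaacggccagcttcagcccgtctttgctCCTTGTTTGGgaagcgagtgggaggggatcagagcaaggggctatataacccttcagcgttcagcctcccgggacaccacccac
Cnn1: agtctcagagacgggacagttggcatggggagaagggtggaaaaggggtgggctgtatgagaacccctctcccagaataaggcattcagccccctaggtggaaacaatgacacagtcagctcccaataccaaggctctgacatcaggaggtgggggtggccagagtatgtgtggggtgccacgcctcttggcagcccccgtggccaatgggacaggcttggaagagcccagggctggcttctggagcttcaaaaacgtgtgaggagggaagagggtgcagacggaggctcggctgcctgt
The Acta2 window held 2 CArG-like matches, CCCTATATGG at positions -84 to -75 and CCTTGTTTGG at -34 to -25 from that start site, and the Cnn1 window held 0. Among all 32851 promoters of the table, 9.98% held at least 1 CArG-like match, and 1.63% held a strict CArG box in which all 6 inner bases are A or T, which none of the 4 member promoters did. E-boxes (CANNTG) occurred 3 times in the Acta2 window, once in that of Cnn1, 3 times in that of Ddah1 and once in that of Lrrc15, against 72.3% of all promoters with at least 1. A single MCAT element (CATTCC) lay in the Acta2 window on the minus strand, at -146 to -141, and 14.7% of all promoters held one. These matches are descriptions of the letters and no binding was measured.

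Values per mouse are given as normalized read counts, which are raw counts divided by the relative library size after trimmed mean of M values (TMM) scaling. Total counts lay between 21702659 and 29511782 per mouse. Cardiomyocyte markers summed to 1793779 to 1868875 normalized counts in sham, 877630 to 1254307 in DMSO and 1007328 to 1394205 in A10i mice, so the labelled heart tissue showed its defining transcripts in every library. A gene was called changed at an adjusted p below 0.01 in edgeR's quasi-likelihood F-test over all genes tested. The comparisons of DMSO and of A10i with sham share the same 3 sham mice, and their values are set side by side without a test of their likeness.

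To place the members on one scale, their levels were first compared per length, in RPKM (reads per kilobase of gene, scaled to library size). In sham hearts Acta2 led with 51.7 ± 10.4 RPKM (SD, n = 3), followed by Smoc2 at 15.0, Tagln at 11.4 and Myh11 at 7.28 RPKM, and no mouse's value overlapped between these neighbours. Ddah1 at 1.52 RPKM overlapped Fap at 1.101 RPKM, and Fap overlapped Cnn1 at 0.8498 RPKM. Actg2 stood apart at 0.421 RPKM, and Cthrc1 at 0.117 and Lrrc15 at 0.0903 RPKM closed the order and overlapped each other. In DMSO hearts Cthrc1 had moved from the ninth place to the fourth with 8.97 ± 8.27 RPKM (n = 4), and in A10i hearts to the third with 19.1 ± 10.6 RPKM (n = 4), and its values overlapped those of Smoc2 and Tagln in both groups. Acta2 stayed first in all 3 groups with 66.1 ± 8.496 RPKM in DMSO and 88.0 ± 21.7 RPKM in A10i mice, and Lrrc15 stayed last with 0.0701 and 0.289 RPKM.

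Infarction with DMSO was compared with sham surgery to see which of these genes had responded by day 3. Tagln and Cthrc1 rose, and none of the other 8 members passed the threshold. Thus 2 of 10 members were called higher, next to 12.9% of the 17117 genes tested, and 0 were called lower, next to 9.6%. The groups did not overlap in 2 members with higher values in DMSO mice (Tagln and Cthrc1; 25.1% of all genes) and in 1 with lower values (Smoc2; 23.6% of all genes). The median log2 fold change was 1.03 over the 5 contractile members and -0.20 over the 5 myofibroblast members, against 0.0021 over all genes tested.

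Infarction with A10i was compared with the same sham mice. Tagln, Cnn1, Actg2 and Cthrc1 rose, so 4 of 10 members were called higher next to 13.7% of the 16971 genes tested, and 0 were called lower next to 9.11%. The groups did not overlap in 7 members, all with higher values in A10i mice (Acta2, Tagln, Cnn1, Actg2, Cthrc1, Ddah1 and Lrrc15; 24.8% of all genes), and 0 members lay wholly below the sham mice (23.5% of all genes). The median log2 fold change was 1.64 over the contractile and 1.08 over the myofibroblast members, against -0.0054 over all genes.

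Treatment was tested directly between A10i and DMSO mice, the comparison that asks what ADAM10 inhibition did to these transcripts after infarction. No member passed the threshold: 0 of 10 were called higher, as were 0% of the 16792 genes tested, and adjusted p-values of the members ran from 0.248 to 0.619. All 10 members had a positive log2 fold change, whereas 50.7% of all genes did. At an unadjusted p below 0.05 in edgeR, 7 of the 10 had a higher value (Acta2, Tagln, Cnn1, Myh11, Actg2, Lrrc15 and Smoc2), whereas 7.1% of all genes did. The members were chosen with earlier results of these data known, and most of them ranked the same mice alike. These counts are therefore descriptions and not independent agreements. In 0 members were the 2 groups without overlap, next to 4.01% of all genes with all A10i mice above and 4.11% with all A10i mice below. DESeq2 also called 0 members, next to 0.605% of the 17508 genes to which it gave an adjusted p that it called higher. The median log2 fold change was 0.51 over the contractile and 0.54 over the myofibroblast members, against 0.0034 over all genes. Positive values were not particular to the members: markers of other cell types that were also positive in all 8 genes were those of the epicardium and mesothelium (median 0.75, 6 of 8 at an unadjusted p below 0.05), of cycling cells (median 0.49, 0 of 8) and of macrophages and monocytes (median 0.36, 2 of 8). Lists closer to the members were mostly positive too: resting fibroblast markers in 10 of 12 genes (median 0.37) and other activated fibroblast genes in 12 of 16 (median 0.33). Pericyte markers were positive in 10 of 12 (median 0.07) and endothelial markers in 7 of 8 (median 0.13). Other smooth muscle contractile genes were positive in 13 of 20 and negative in 7 (median 0.17), and SRF and its cofactors were positive in 2 of 4. Paralogs of the members were positive in 6 of 14, and neutrophil markers in 0 of 5 tested. The part of these cell types in the values of the members was not tested.

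**Figure D1:**
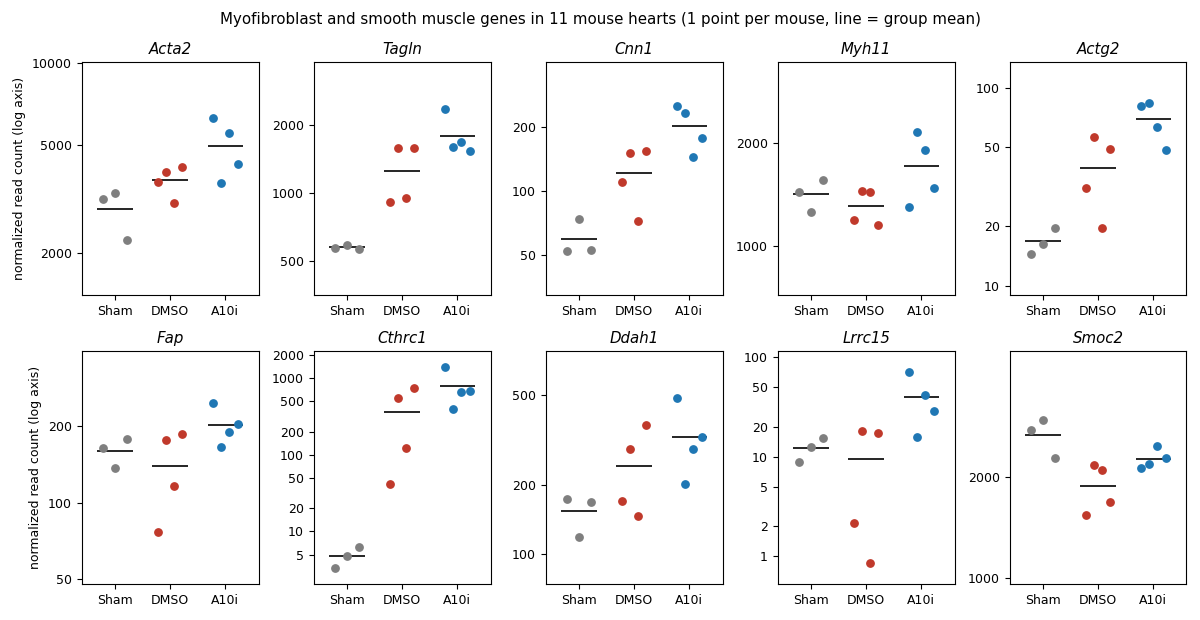
Normalized read counts of the 10 members on log axes, with 1 point per mouse, grouped as Sham (n = 3), DMSO (n = 4) and A10i (n = 4), and a line at each group mean. Cthrc1 lies between 3.32 and 6.19 in sham mice and between 42.0 and 1396 in all infarcted mice, while the 3 groups of Myh11 overlap.

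Acta2 (ENSMUSG00000035783, chr19:34241090-34255590, minus strand, GRCm38) encodes smooth muscle α-actin, the standard myofibroblast marker. Sham mice had 3157 (S1), 3315 (S2) and 2238 (S3) normalized counts. DMSO mice had 3648 (A105), 3984 (A127), 3062 (A128) and 4137 (A129), and A10i mice 6310 (A116), 3624 (A117), 5551 (A119) and 4263 (A120). Of the DMSO mice, 3 lay above the highest sham mouse and A128 lay within the sham range, whereas all 4 A10i mice lay above it and 3 of them above every DMSO mouse. The log2 fold change was 0.35 ± 0.15 (SE) for DMSO against sham (adjusted p = 0.0912), 0.77 ± 0.21 for A10i against sham (adjusted p = 0.0187) and 0.42 ± 0.17 for A10i against DMSO (unadjusted p = 0.0354, adjusted p = 0.319). None of these passed 0.01, although DESeq2 called Acta2 higher in A10i mice than in sham mice (adjusted p = 4.34e-04).

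Tagln (ENSMUSG00000032085, chr9:45929619-45936058, minus strand) encodes transgelin, an actin-binding protein of smooth muscle also known as SM22α. Sham mice were nearly level at 574 (S1), 587 (S2) and 569 (S3) normalized counts. DMSO mice had 914 (A105), 1584 (A127), 955 (A128) and 1574 (A129), and A10i mice 2359 (A116), 1593 (A117), 1676 (A119) and 1537 (A120). Every infarcted mouse lay above every sham mouse, and within the DMSO group A105 and A128 were lower than the other two. Tagln rose by 1.12 ± 0.21 on the log2 scale in DMSO mice (2.17-fold, adjusted p = 0.00372) and by 1.64 ± 0.15 in A10i mice (3.11-fold, adjusted p = 2.08e-04), and the difference between A10i and DMSO was 0.51 ± 0.21 (unadjusted p = 0.0376, adjusted p = 0.327). The exons of Tagln share 1241 bases (62.4% of its exon length) with Gm48529 and 108 bases with Pcsk7, both on the opposite strand. Gm48529 itself had 37 to 80 counts per library, and the strand setting of the counting is not given in the sources used here.

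Cnn1 (ENSMUSG00000001349, chr9:22099216-22109630, plus strand) encodes calponin 1, which binds actin and restrains myosin in smooth muscle. Normalized counts were 52.0 (S1), 73.6 (S2) and 52.6 (S3) in sham mice. They were 110.0 (A105), 151 (A127), 72.3 (A128) and 155 (A129) in DMSO mice and 251 (A116), 231 (A117), 145 (A119) and 177 (A120) in A10i mice. A128 lay inside the sham range, so the DMSO and sham groups overlapped, while all A10i mice were above all sham mice. Cnn1 had a log2 fold change of 1.03 ± 0.28 in DMSO mice that missed the threshold (adjusted p = 0.0167), and it rose by 1.76 ± 0.23 in A10i mice (3.38-fold, adjusted p = 4.80e-04). Between A10i and DMSO the difference was 0.73 ± 0.25 (unadjusted p = 0.0170, adjusted p = 0.248), the smallest adjusted p among the members.

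Myh11 (ENSMUSG00000018830, chr16:14194535-14291372, minus strand) encodes the smooth muscle myosin heavy chain. Normalized counts were 1432 (S1), 1254 (S2) and 1554 (S3) in sham mice. They were 1191 (A105), 1441 (A127), 1431 (A128) and 1152 (A129) in DMSO mice and 1300 (A116), 2140 (A117), 1901 (A119) and 1471 (A120) in A10i mice. All 3 groups overlapped, and the highest infarcted mouse was A117, not A116 as in the 3 genes before. The log2 fold change was -0.12 ± 0.11 for DMSO against sham (adjusted p = 0.410), 0.27 ± 0.17 for A10i against sham (adjusted p = 0.225) and 0.39 ± 0.16 for A10i against DMSO (unadjusted p = 0.0337, adjusted p = 0.313).

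Actg2 (ENSMUSG00000059430, chr6:83512905-83536265, minus strand) encodes smooth muscle γ-actin, the enteric form. Its counts were low in sham hearts, at 14.4 (S1), 16.2 (S2) and 19.6 (S3) normalized counts. DMSO mice had 31.3 (A105), 56.6 (A127), 19.6 (A128) and 49.2 (A129), and A10i mice 81.1 (A116), 84.1 (A117), 63.3 (A119) and 48.3 (A120). A128 lay at the level of the highest sham mouse, and 3 of 4 A10i mice lay above every DMSO mouse. Actg2 had a log2 fold change of 1.21 ± 0.39 in DMSO mice (adjusted p = 0.0307) and rose by 2.04 ± 0.27 in A10i mice (4.12-fold, adjusted p = 4.98e-04), with 0.83 ± 0.32 between A10i and DMSO (unadjusted p = 0.0264, adjusted p = 0.287).

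Because Acta2 and Actg2 encode proteins near-identical in sequence to the other actins, the 6 actin genes were also set side by side per length. How any reads common to several actin transcripts were assigned was not resolved here beyond the use of uniquely aligned reads. The cardiac actin Actc1 made up 95.1 ± 0.74% of the summed actin RPKM in sham mice (n = 3), 84.7 ± 3.02% in DMSO mice and 86.7 ± 2.42% in A10i mice (n = 4 each). Acta2 contributed 0.969 ± 0.19%, 1.46 ± 0.30% and 1.93 ± 0.36% in the same order, and Actg2 0.00792%, 0.0220% and 0.0399%. The cytoplasmic actins, which every cell uses, were called in DMSO mice, where Acta2 was not. Actb rose by 1.66 ± 0.17 (adjusted p = 2.01e-04) and Actg1 by 1.65 ± 0.17 (adjusted p = 2.08e-04) on the log2 scale against sham. Skeletal actin Acta1 had a log2 fold change of 1.48 ± 0.42 (adjusted p = 0.0222) and Actc1 of -0.38 ± 0.16 (adjusted p = 0.0801) in that comparison. Between A10i and DMSO, Actb stood at -0.31, Actg1 at -0.41, Acta1 at -0.26 and Actc1 at 0.02, none of them past the threshold, whereas Acta2 and Actg2 stood at 0.42 and 0.83.

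**Figure D2:**
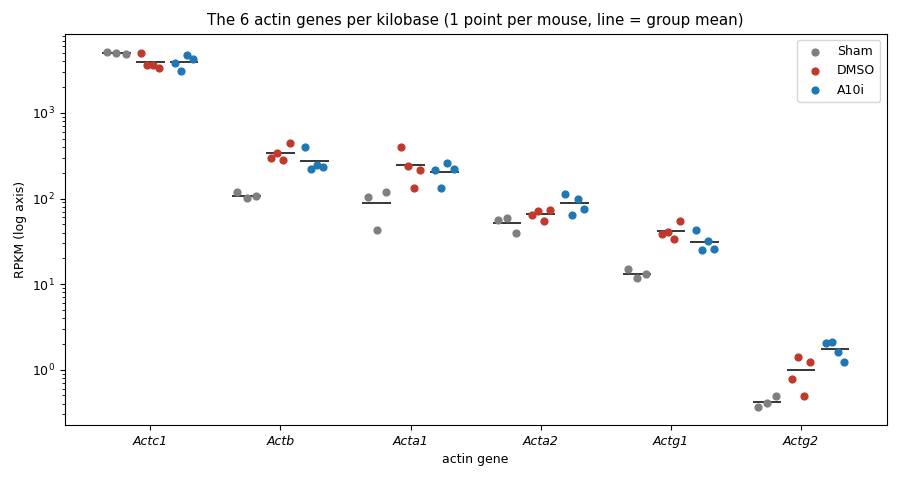
Levels of the 6 actin genes in RPKM on a log axis, with 1 point per mouse, grouped as Sham (n = 3), DMSO (n = 4) and A10i (n = 4), and a line at each group mean. Acta2 is higher in all 4 A10i mice (64.6 to 112 RPKM) than in the sham mice (39.9 to 59.1 RPKM), at a level far below Actc1.

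Fap (ENSMUSG00000000392, chr2:62500943-62574075, minus strand) encodes fibroblast activation protein, a surface protease of activated fibroblasts. Normalized counts were 164 (S1), 137 (S2) and 177 (S3) in sham mice. They were 76.5 (A105), 176 (A127), 116.5 (A128) and 186 (A129) in DMSO mice and 246 (A116), 166 (A117), 189 (A119) and 205 (A120) in A10i mice. The groups overlapped in every comparison, with A105 and A128 below all sham mice and 3 of 4 A10i mice above all DMSO mice. The log2 fold change was -0.20 ± 0.28 for DMSO against sham (adjusted p = 0.598), 0.34 ± 0.16 for A10i against sham (adjusted p = 0.105) and 0.54 ± 0.26 for A10i against DMSO (unadjusted p = 0.0625, adjusted p = 0.393).

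Cthrc1 (ENSMUSG00000054196, chr15:39076932-39087121, plus strand) encodes a secreted collagen triple helix repeat protein made by injury-activated fibroblasts. It was close to undetected in sham hearts, with 3.32 (S1), 4.78 (S2) and 6.19 (S3) normalized counts, from 3, 5 and 6 raw reads. DMSO mice had 42.0 (A105), 552 (A127), 123 (A128) and 743 (A129), and A10i mice 1396 (A116), 390 (A117), 656 (A119) and 669 (A120). All infarcted mice lay above all sham mice, the highest DMSO mouse was 17.7-fold above the lowest, and 3 of 4 A10i mice lay within the DMSO range. Cthrc1 rose by 6.21 ± 1.29 on the log2 scale in DMSO mice (adjusted p = 0.00650) and by 7.31 ± 0.68 in A10i mice (adjusted p = 3.07e-04), the largest log2 fold change of any member in either comparison, and these sizes rest on the few sham reads. Between A10i and DMSO the difference was 1.09 ± 0.71 (unadjusted p = 0.158, adjusted p = 0.543).

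Ddah1 (ENSMUSG00000028194, chr3:145758675-145894277, plus strand) encodes an enzyme that breaks down asymmetric dimethylarginine, an inhibitor of nitric oxide synthase. Normalized counts were 175 (S1), 118.6 (S2) and 170 (S3) in sham mice. They were 171 (A105), 290 (A127), 147 (A128) and 367 (A129) in DMSO mice and 485 (A116), 204 (A117), 289 (A119) and 325 (A120) in A10i mice. A105 and A128 lay within the sham range and the other two DMSO mice above it, as did all 4 A10i mice. The log2 fold change was 0.66 ± 0.32 for DMSO against sham (adjusted p = 0.134), 1.08 ± 0.28 for A10i against sham (adjusted p = 0.0157) and 0.42 ± 0.33 for A10i against DMSO (unadjusted p = 0.229, adjusted p = 0.619).

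Lrrc15 (ENSMUSG00000052316, chr16:30269302-30283256, minus strand) encodes a leucine-rich repeat membrane protein found on myofibroblasts. Raw reads were few, with 8 (S1), 13 (S2) and 15 (S3) in sham mice. There were 2 (A105), 21 (A127), 1 (A128) and 17 (A129) reads in DMSO mice and 70 (A116), 16 (A117), 39 (A119) and 25 (A120) in A10i mice. DMSO mice lay on both sides of the sham mice, and all 4 A10i mice lay above the sham mice after normalization (15.8 to 71.0 against 8.86 to 15.5 normalized counts). The log2 fold change was -0.36 ± 0.75 for DMSO against sham (adjusted p = 0.727), 1.67 ± 0.50 for A10i against sham (adjusted p = 0.0258) and 2.02 ± 0.71 for A10i against DMSO (unadjusted p = 0.0175, adjusted p = 0.251), at a depth where the 2 low DMSO libraries held 3 reads or fewer.

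Smoc2 (ENSMUSG00000023886, chr17:14279506-14404790, plus strand) encodes a secreted calcium-binding matrix protein of the SPARC family. It was abundant in sham mice, with 2753 (S1), 2954 (S2) and 2274 (S3) normalized counts. DMSO mice had 1543 (A105), 2172 (A127), 2105 (A128) and 1688 (A129), and A10i mice 2128 (A116), 2194 (A117), 2473 (A119) and 2279 (A120). It was the 1 member with every DMSO mouse below every sham mouse, while A10i mice overlapped both groups. The log2 fold change was -0.51 ± 0.14 for DMSO against sham (adjusted p = 0.0158), -0.23 ± 0.09 for A10i against sham (adjusted p = 0.0763) and 0.28 ± 0.12 for A10i against DMSO (unadjusted p = 0.0394, adjusted p = 0.333).

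**Figure D3:**
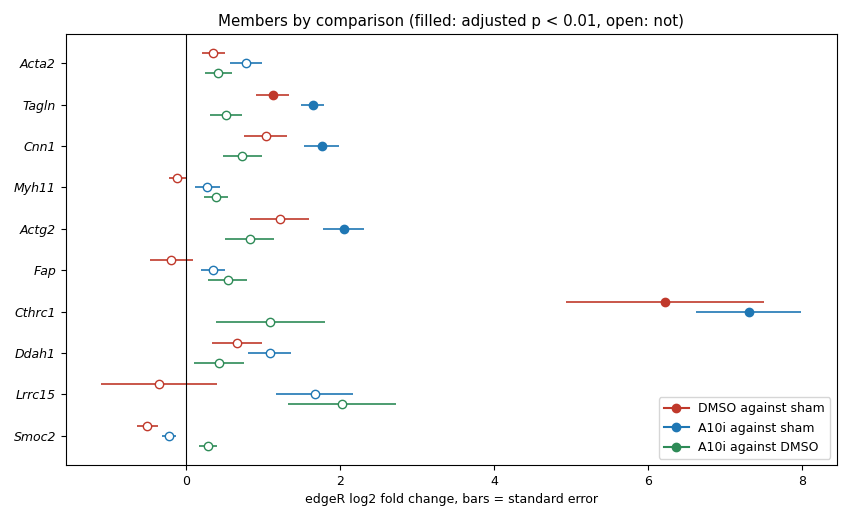
Log2 fold changes from edgeR (horizontal axis) with standard errors as bars for the 10 members (vertical axis) in the 3 comparisons, where filled points passed an adjusted p of 0.01 and open points did not. In A10i against DMSO all 10 points lie right of 0, between 0.28 and 2.02, and all are open.

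The number of calls depended on which mice were included, over all genes as well as among the members. When S1, S2 or S3 was left out, 0 members were called in DMSO against sham. Genes called higher over the whole table then fell from 2215 to between 922 and 977, while the log2 fold change of Tagln stayed at 1.11 to 1.13. Without A129, 1 member remained (Tagln), next to 2080 genes called higher. Without A128, 4 members were called (Tagln, Cnn1, Actg2 and Cthrc1), next to 2288 genes called higher. In A10i against sham, leaving out A117 gave 7 calls, with Acta2, Ddah1 and Lrrc15 in addition, next to 2296 genes called higher against 2333 with all mice. No omission in that comparison gave fewer than 4 members, while genes called higher ran from 1062 to 2544.

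The spread within the DMSO group ran alike through most members. A105 and A128 were the 2 lowest DMSO mice in 8 of 10 members, the exceptions being Myh11 and Smoc2, while the same pair was lowest in 22.4% of the 16792 genes tested between A10i and DMSO. Postn, which encodes periostin, a matrix protein of activated fibroblasts, had 2705 (A105), 9606 (A127), 3606 (A128) and 13622 (A129) normalized counts in these mice, and cycling cell markers summed to 438 (A105), 3183 (A127), 1840 (A128) and 4772 (A129). Summed macrophage and monocyte markers were also lowest in A105 (11041) and A128 (11847) among the DMSO mice, against 16332 in A127 and 19578 in A129. Single markers did not all follow that sum: Ccr2 and Fcgr1 were lower in A127 than in A105, and Ly6c2 was highest in A105. Cardiomyocyte marker sums were 1254307 (A105), 1128619 (A127), 1034755 (A128) and 877630 (A129), in a different order of mice, with A105 highest and A129 lowest. Among all 8 infarcted mice, A116 was highest in 7 of 10 members, against 15.4% of the genes tested, and it also had the highest sums of cycling cell markers (6288) and of macrophage and monocyte markers (28298). The part of these other cell populations in the values of the members was not tested.

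**Figure D4:**
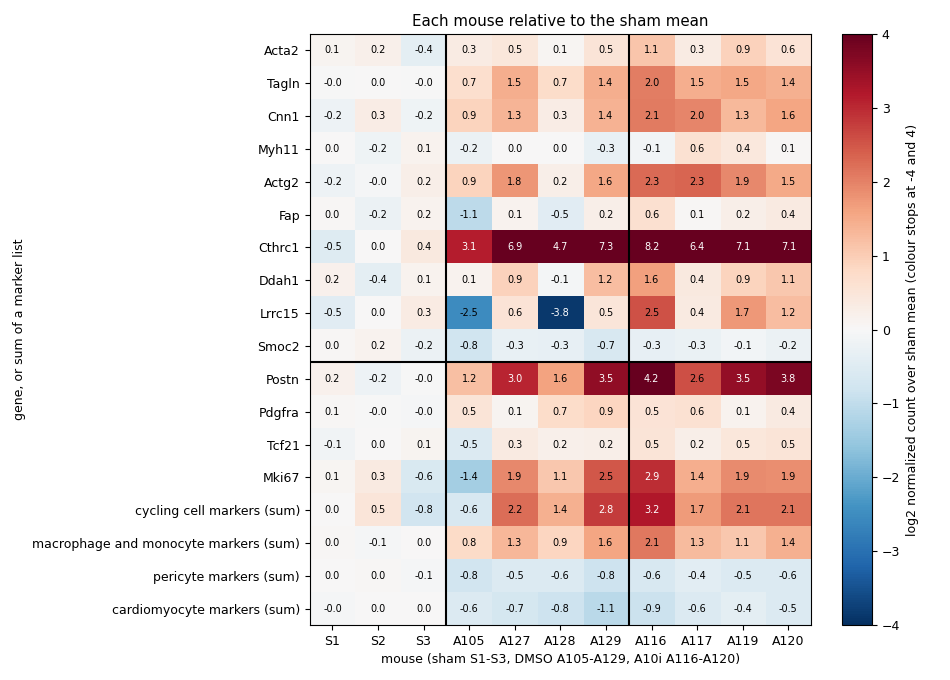
Log2 of each mouse's normalized count over the sham mean for the 10 members (upper block), 4 single genes and 4 summed marker lists (lower block), with mice in columns, sham, DMSO and A10i from left to right. The printed values of A105 and A128 are below those of A127 and A129 in Cthrc1, Tagln, Lrrc15, Postn and the cycling cell markers.

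As ratios within a mouse, free of the scaling between libraries, Acta2 was set against Myh11 and Fap against Pdgfra, a receptor carried by cardiac fibroblasts in general. The mean log2 ratio of Acta2 to Myh11 was 1.02 ± 0.45 (SD, n = 3) in sham mice, 1.51 ± 0.31 (n = 4) with DMSO and 1.53 ± 0.62 (n = 4) with A10i. In the A10i group it ran from 0.76 in A117 to 2.28 in A116. The 3 differences were 0.48 for DMSO against sham (p = 0.171), 0.51 for A10i against sham (p = 0.286) and 0.02 for A10i against DMSO (p = 0.943), all by two-sided exact permutation tests over mice. The log2 ratio of Fap to Pdgfra was -3.09 ± 0.19 in sham mice, -3.92 ± 0.69 with DMSO and -3.17 ± 0.32 with A10i, with the lowest values in A105 (-4.65) and A128 (-4.25). Its differences were -0.83 for DMSO against sham (p = 0.171), -0.08 for A10i against sham (p = 0.857) and 0.75 for A10i against DMSO (p = 0.0857), again by exact permutation tests. After adjustment over the 6 tests the smallest p was 0.343, and the smallest unadjusted p that these exact tests can give is 0.0571 for 3 against 4 mice and 0.0286 for 4 against 4.

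Among 20 other genes of the smooth muscle contractile apparatus, 7 rose and 3 fell in DMSO against sham, 9 rose and 2 fell in A10i against sham, and 0 were called in A10i against DMSO. Without S1, S2 or S3 the 10 calls in DMSO mice became 5, 5 and 4, and the 11 calls in A10i mice became 6 each time. Actn1, which encodes the cross-linker α-actinin 1, rose by 1.86 ± 0.20 and Pdlim3, an actinin-associated protein gene, by 1.15 ± 0.11 on the log2 scale in DMSO mice (adjusted p = 3.06e-04 and 1.54e-04). Ppp1r12b, a subunit of myosin phosphatase, fell by 0.62 ± 0.10, and Synpo2, an actin-bundling protein gene, fell by 0.53 ± 0.11 (adjusted p = 0.00114 and 0.00395). In sham mice Tpm1, Ppp1r12b and Synpo2 averaged 166948, 10936 and 5013 normalized counts, above Acta2 at 2903. Cardiomyocyte markers had a median log2 fold change of -0.64 in DMSO against sham. Which cell types gave the counts of these 20 genes was not tested, so the falls cannot be assigned to smooth muscle. The median log2 fold change of the 20 genes was 0.22, 0.37 and 0.17 in the 3 comparisons. In A10i against DMSO, 6 of the 20 had a higher and 1 a lower value at an unadjusted p below 0.05, and in 4 (Lmod1, Myl9, Itga8 and Aoc3, with log2 fold changes of 0.67, 0.43, 0.80 and 0.60) all A10i mice lay above all DMSO mice. DESeq2 called 1 of the 20 in that comparison, Aoc3 (adjusted p = 0.00608).

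SRF and its cofactors, which switch on the contractile genes, were measured as 4 genes. Mrtfb fell by 0.81 ± 0.08 on the log2 scale in DMSO mice (adjusted p = 1.52e-04) and by 0.45 ± 0.07 in A10i mice (adjusted p = 8.93e-04), and the other 3 were not called, although 2 of the 4 were called in A10i against sham by DESeq2, without a filter, or without A117 or A119. Srf had log2 fold changes of 0.07 and 0.00164, Mrtfa of 0.31 and 0.50 and Myocd, the smooth muscle and cardiac cofactor myocardin, of -0.16 and -0.44 against sham in DMSO and in A10i mice. None of the 4 was called between A10i and DMSO, where Mrtfb stood at 0.36 ± 0.08 (adjusted p = 0.105).

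Of 14 paralogs of the members, among them the actins described above, 7 rose in DMSO and 6 in A10i mice against sham, 0 fell, and 0 were called between A10i and DMSO, with a median of -0.0050 in the last comparison. Without S3 the paralogs called in DMSO mice became 4, and without a filter on low counts those called in A10i mice became 3. Of 16 other genes of activated fibroblasts, 15 rose in DMSO and all 16 in A10i mice, with medians of 2.00 and 2.61. The 15 calls in DMSO mice became 8, 8 and 7 without S1, S2 or S3, and without a filter on low counts the calls became 7 in DMSO and 9 in A10i mice. They include Tnc (tenascin C), which rose by 6.84 ± 0.50, and Timp1, an inhibitor of matrix metalloproteases, which rose by 6.63 ± 0.49 in DMSO mice (adjusted p = 7.18e-05 and 7.78e-05). Between A10i and DMSO, 0 of the 16 were called, 2 had a higher value at an unadjusted p below 0.05, and the median was 0.33.

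Markers of resting fibroblasts rose in 1 of 12 genes in DMSO mice (Mfap5, a microfibril protein gene, by 1.14 ± 0.21, adjusted p = 0.00358) and in 7 of 12 in A10i mice. Between A10i and DMSO edgeR called 0 of them, 10 of 12 were positive (median 0.37) and 4 were higher at an unadjusted p below 0.05. DESeq2 called 1 of the 12 higher in that comparison, Dpt (adjusted p = 6.71e-04). Pericytes, the wall cells of capillaries, share several contractile genes with smooth muscle. Of 12 pericyte markers 1 rose and 6 fell in DMSO mice, and 1 rose and 5 fell in A10i mice. Mcam rose by 1.40 ± 0.20, while the channel subunit gene Abcc9 fell by 1.05 ± 0.16 and Rgs5 fell by 0.95 ± 0.13 in DMSO mice (adjusted p = 9.24e-04, 0.00109 and 7.37e-04). The summed pericyte markers were 41135 to 43857 normalized counts in sham, 24380 to 29532 in DMSO and 27433 to 31953 in A10i mice. In this sum both infarcted groups lay wholly below the sham group. Most of the sum came from Rgs5 and Abcc9, with means of 18140 and 14578 in sham mice, so it does not stand for all 12 markers. Against sham, 5 of the 12 had a positive log2 fold change in DMSO and 5 in A10i mice. None of the 12 was called between A10i and DMSO.

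**Figure D5:**
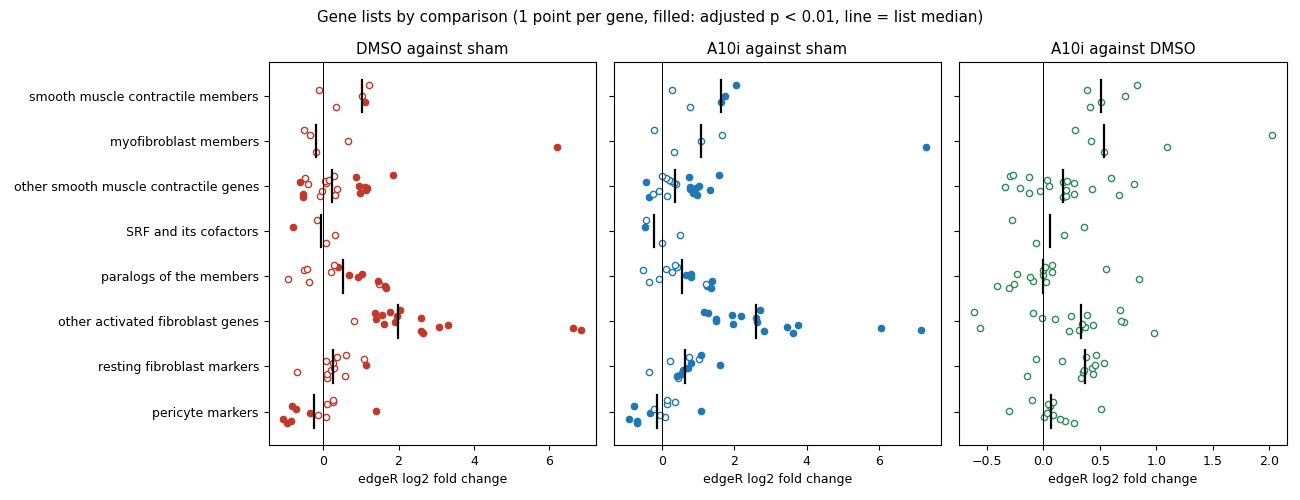
Log2 fold changes from edgeR (horizontal axes, a narrower range in the right panel) of each gene of 8 lists in the 3 comparisons, filled where the adjusted p was below 0.01, with a line at the list median. Of 16 other activated fibroblast genes, 15 are filled in DMSO against sham, and 0 points are filled in A10i against DMSO.

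Marker transcripts of other cell types also differed from sham in the same samples, and not all genes of a list behaved alike. Of 8 cardiomyocyte markers 4 fell in DMSO and 3 in A10i mice, with Myh6 falling by 1.19 ± 0.16 and Myl2 by 0.83 ± 0.20 in DMSO mice (adjusted p = 6.37e-04 and 0.00917). Of 8 endothelial markers 2 fell in DMSO mice (Tie1 by 0.54 ± 0.08 and Kdr by 0.35 ± 0.08, adjusted p = 8.22e-04 and 0.00698) and 1 in A10i mice. Macrophage and monocyte markers rose in 5 of 8 genes in DMSO mice, led by Ccr2 (2.93 ± 0.43) and Fcgr1 (2.69 ± 0.35), and in 7 of 8 in A10i mice. Neutrophil markers, 5 of 8 of them tested, all rose in both infarcted groups, with S100a8 at 8.31 ± 0.37 and Mmp8 at 7.49 ± 0.53 in DMSO mice. Their sums were 1655 to 3138 normalized counts in DMSO and 336 to 1131 in A10i mice without overlap, while the log2 fold changes of the members were positive, and none of the 5 passed the threshold in edgeR between A10i and DMSO, where their median log2 fold change was -1.96 (5 of 5 at an unadjusted p below 0.05). DESeq2 called 4 of them lower in A10i mice. Epicardial and mesothelial markers rose in 4 of 8 genes in both infarcted groups, among them Krt8 (3.12 ± 0.31) and Krt19 (1.72 ± 0.25) in DMSO mice. Cycling cell markers rose in 8 of 8 genes in A10i mice (median 2.64), and in DMSO mice all 8 were positive (median 2.16), 7 at an unadjusted p below 0.05, with 0 called by edgeR and 2 by DESeq2. Lymphocyte markers, 1 or 2 of 8 tested, gave no call. Whether these cell types had a part in the values of the members was not tested.

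The genes whose pattern over the 11 libraries lay nearest to 3 of the members were found from standardized log2 CPM (counts scaled to library size), by the root mean square difference among 17479 genes. Nearest to Cthrc1 were the collagen gene Col1a1 (0.0963), Sfrp2 (0.127) and Pcolce (0.131). Col1a1 had 2878 to 3195 normalized counts in sham, 7122 (A105), 27795 (A127), 13013 (A128) and 38903 (A129) in DMSO and 24533 to 60591 in A10i mice, in the same order of mice as Cthrc1 within the DMSO group. Acta2 lay nearest to Bst2 (0.241), Oas1g (0.291) and Ly86 (0.306), all 3 at a larger distance than the Cthrc1 neighbours. Myh11 had no gene as near, the first being Ntn4 (0.495). Among the members themselves the closest pair was Tagln and Cthrc1 (0.176), followed by Cnn1 and Actg2 (0.269), and these distances are descriptions over libraries that share their group structure.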

How the data were processed

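RNA of 11 hearts was analysed from the deposited table of raw read counts per gene. According to the methods and the submitters' processing notes, the authors prepared strand-specific paired-end libraries from poly(A) RNA, demultiplexed with bcl2fastq 2.20.0, aligned to the mouse genome (mm10, Ensembl annotation) with GSNAP and counted uniquely aligned reads with featureCounts 2.0.1; the strand setting of the counting is not given in the sources used here. The deposited counts are whole numbers without normalization. Of 55513 rows, 92 spike-in rows were left out (4.74e-05 to 1.94e-04% of a library), and 55154 of the 55421 genes received a symbol from GENCODE M21.

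Groups followed the labels. Each pair of groups was fitted alone in R 4.3.3 with edgeR 4.0.16: filterByExpr, TMM, a two-sided quasi-likelihood F-test with robust fitting, Benjamini-Hochberg adjusted over all genes tested and a threshold of 0.01. The standard error of a log2 fold change was derived from its F statistic. RPKM used the gene length in the table. Ratios used a prior count of 0.5 and an exact permutation test. DESeq2 1.42.0 (adjusted p left NA where DESeq2 gives NA), limma-voom (limma 3.58.1), other scalings and filters, a joint fit of the 11 libraries, a threshold of 0.05 and leaving out each mouse were alternatives. The fits were tested on simulated counts that gave every gene the same dispersion. That setting does not cover the wide spread of Cthrc1 and Lrrc15 within the DMSO group.

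The members and the gene lists were chosen with earlier results of these data known. Named were all 10 members, from every other list the 2 genes with the largest positive and the 2 with the largest negative log2 fold change among those called in DMSO against sham, 4 further actins, and the 3 nearest genes of Acta2, Myh11 and Cthrc1, of which some are not reported here. Postn, Srf, Mrtfa, Myocd, Lmod1, Myl9, Itga8, Aoc3, Dpt and Ly6c2 were named after their values were seen. The depth of 21702659 to 29511782 counts per library left few reads for Cthrc1 in sham and for Lrrc15. Nothing in the labels gives a batch. The p-values set a difference between groups against the spread between these mice, which the gene-wise fits estimate partly across genes.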

Additional observations from a re-analysis of the deposited data

Results flagged for a closer look

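Tagln in mouse A116 stood apart from the other A10i mice, with 2359 normalized counts against 1537 to 1676 in the other 3, a gap of 0.831 of the group's range, just past the critical value of Dixon's test for 4 mice. Of 20 groups tested (10 members in the DMSO and in the A10i group) it was the 1 past that value, and chance alone gives about 1 in 20. The spike-in rows, which enter no comparison, held 14 to 55 reads per library.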

How the results depend on the processing

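The number of members called in DMSO against sham was 2, and it became 5 at an adjusted p below 0.05, 4 with DESeq2 (Cnn1 and Smoc2 in addition), 1 with limma-voom, 1 with at least 10 counts in every library (which left Cthrc1 and Lrrc15 untested) and 0 to 4 when 1 mouse was left out. Without a filter it was again 2, but Cnn1 and Smoc2 in place of Tagln and Cthrc1; the cause was not tested. For A10i against sham the number was 4, with 7 at 0.05, 7 with DESeq2 and 4 to 7 without 1 mouse. For A10i against DMSO it was 0 under every alternative, and all members tested kept a positive log2 fold change. With library size alone the log2 fold change in DMSO against sham turned to 0.0876 for Myh11 and 0.0281 for Fap, and that of Lrrc15 ran from -0.90 to 0.0450 without 1 mouse (positive without A128); none of the 3 was called. That scaling moved the median of all genes by 0.21 in DMSO and 0.18 in A10i against sham, and the calls from 2215 higher and 1643 lower to 3330 and 708 in DMSO and from 2333 and 1546 to 3436 and 577 in A10i. Without 1 sham mouse, 922 to 977 genes were called higher in DMSO against sham. Over all genes A10i against DMSO gave 0 calls, and DESeq2 gave 106 higher and 125 lower. Leaving out 1 mouse moved the difference in the Acta2 to Myh11 ratio for A10i against DMSO between -0.23 and 0.28 (negative without A116 or A128), and that of Fap to Pdgfra for A10i against sham between -0.18 and 0.0727 (positive without S3 or A117). No paired analysis was possible because the groups share no replicate numbers. Depth limits Lrrc15 and the sham level of Cthrc1.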
